A study of Homo sapiens with 6 samples.

Results

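The 10 genes described here are VCP, UFD1, NPLOC4, FAF2, UBXN7, NSFL1C, NEDD4, WWP2, UBAP2 and UBAP2L. They were chosen by name, with earlier results of these data known, as were the other gene lists below. The first 6 encode the ATPase VCP and its cofactors, and the other 4 encode HECT ligases and UBA domain proteins that act in ubiquitination of RNA polymerase II (Pol II). All 10 passed the filter on low counts and belong to the 13737 genes tested. RNA was compared between 2 groups of SPT5-AID cells, a DLD-1 colorectal adenocarcinoma line whose SPT5 is fused to an auxin-inducible degron (AID). One group was infected with lentivirus for an shRNA against ARMC5 (shARMC5) and the other with a nontargeting shRNA (shNT), with 3 libraries in each group. Both groups carry the degron, the sample labels name no auxin, and the ARMC5 shRNA construct used for these libraries is not given in the sources used here. The study describes its n as biological replicates, and the labels do not say how these were grown.

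VCP, also called p97, is a hexameric AAA+ ATPase that unfolds ubiquitinated proteins and pulls them out of membranes, complexes and chromatin. The heterodimer of UFD1 and NPLOC4 binds the ubiquitin chain and feeds the substrate into the ATPase, whereas proteins with a UBX domain, such as FAF2, UBXN7 and NSFL1C, tether VCP to a compartment, a ligase or a class of substrate. Stalled or damaged Pol II is known to be ubiquitinated on its largest subunit by several ligases in turn and then extracted from chromatin by VCP for degradation. The study asked how the ubiquitin ligase CUL3 recognizes Pol II on chromatin after loss of SPT5. It identified ARMC5 as an adaptor needed to degrade Pol II that lacks SPT5. The RNA-seq compared gene expression with and without ARMC5 knockdown.

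The depth ranged from 26201112 to 40866478 assigned reads per library. ARMC5, the targeted gene, was at 10.76, 11.97 and 12.93 counts per 1000000 counts on genes (CPM) in the shARMC5 libraries and at 23.0, 25.9 and 26.7 CPM in the shNT libraries. Its level fell to a ratio of 0.471 of shNT (log2 fold change -1.09 with a standard error, SE, of 0.08, adjusted P = 5.3e-07 by edgeR). Of 10 markers of colorectal epithelium, 6 (EPCAM, CDH1, KRT8, KRT18, KRT19 and CDX2) were above 10 transcripts per 1000000 transcripts (TPM) in every library, VIL1 was at 2.95 to 9.91 TPM, LGALS4 reached at most 1.07 TPM, and KRT20 and CDX1 had no reads. Of 11 markers of blood cells, fibroblasts and endothelium, 10 were under 1 TPM in every library, and CD14 reached 1.19 TPM. In bulk RNA, fewer cells of a type and less RNA per cell cannot be told apart.

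Several of these genes are read out as more than 1 transcript, and the stretches that separate the main transcripts are shown because they differ in coding sequence between transcripts whose shares of reads are given below. The transcripts also differ in length elsewhere, and which bases decided the assignment of reads was not tested. In each, capitals mark the stretch that differs, with 10 bases of flanking sequence on either side in lower case, read 5′ to 3′ from the minus strand of GRCh38. VCP-207 keeps the intron of 78 bases that follows exon 8 of the 17 exons of VCP-201 (chr9:35062139-35062216), and GENCODE annotates it as a retained intron with no coding sequence. UFD1-202 lacks 53 coding bases within exon 11 of UFD1-201 (chr22:19454749-19454801), and its coding sequence has 798 bases in place of 921. UBXN7-205 skips exon 2 of UBXN7-201, of 148 bases (chr3:196407246-196407393), and is annotated as a target of nonsense-mediated decay with a coding sequence of 225 bases in place of 1467. NSFL1C-202 skips exon 6, of 93 bases (chr20:1454213-1454305), and exon 4, of 6 bases (chr20:1455714-1455719), of NSFL1C-206, and its coding sequence has 1017 bases in place of 1116.
VCP-207 kept intron: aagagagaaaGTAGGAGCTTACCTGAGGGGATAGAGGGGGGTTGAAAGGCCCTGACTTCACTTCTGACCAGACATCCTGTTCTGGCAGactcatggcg
UFD1-202 missing stretch: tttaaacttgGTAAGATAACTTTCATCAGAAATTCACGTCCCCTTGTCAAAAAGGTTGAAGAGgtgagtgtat
UBXN7-205 skipped exon: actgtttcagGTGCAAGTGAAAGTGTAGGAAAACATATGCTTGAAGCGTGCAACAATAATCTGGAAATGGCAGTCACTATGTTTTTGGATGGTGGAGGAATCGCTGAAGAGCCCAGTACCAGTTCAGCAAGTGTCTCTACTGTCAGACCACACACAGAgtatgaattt
NSFL1C-202 skipped exon 6: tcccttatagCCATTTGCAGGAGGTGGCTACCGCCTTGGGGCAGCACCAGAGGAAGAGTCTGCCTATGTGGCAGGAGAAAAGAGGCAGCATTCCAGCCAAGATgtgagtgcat
NSFL1C-202 skipped exon 4: ctgacttaagGAGCAGgtaggtaggg

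None of the 10 genes was called between shARMC5 and shNT cells in the fit with condition alone. When a block for the replicate number was added, 1, NSFL1C, was called, as were 12.9% of all genes tested. A gene was called when its adjusted P value from edgeR's quasi-likelihood F test was under 0.1. In the fit with condition alone, 7.75% of all genes tested met this threshold, 4.44% higher and 3.3% lower in shARMC5 cells. Of the 10 genes, 0 were called by edgeR, 3 (NSFL1C, UFD1 and FAF2) had an unadjusted P value under 0.05, as did 18.1% of all genes, and 0 were called by DESeq2, which called 6.38% of all genes. The log2 fold changes lay between -0.03 (UBXN7) and 0.10 (NSFL1C), with a median of 0.03 beside -0.0014 over all genes tested. Without regard to direction, their median size was 0.03, against 0.08 over all genes tested. The 95% confidence intervals of all 10 lay between -8.43% and 12.9%. Between 1347 and 25122 reads per library covered each gene. In 5 of the 10 (VCP, UFD1, FAF2, NSFL1C and UBAP2L) every shARMC5 library lay above every shNT library, and in 0 every shARMC5 library lay below. Over all genes tested, 12.5% had the first order and 10.9% the second.

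**Figure D1:**
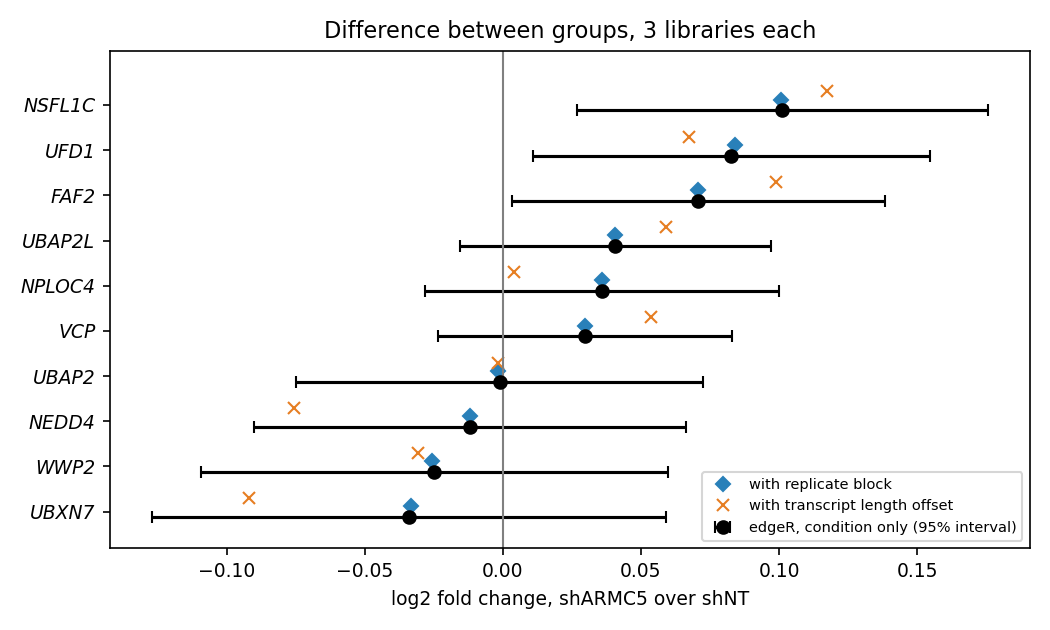
Log2 fold change of each gene in shARMC5 over shNT cells, with the 95% confidence interval from edgeR (black, n = 3 libraries per group), the estimate with a block for replicate number (blue) and with an offset for transcript length (orange). The intervals of NSFL1C, UFD1 and FAF2 lie above 0 before adjustment, and those of the other 7 genes include 0.

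VCP (ENSG00000165280), on chromosome 9 from 35053928 to 35072668 on the minus strand, had the most reads of the 10 genes. It was at 627.5, 637.0 and 632.5 CPM in the shARMC5 libraries and at 609.2, 625.2 and 624.0 CPM in the shNT libraries. The groups did not overlap, but the lowest shARMC5 library lay only 2.4 CPM above the highest shNT library. With 3 libraries per group, the mean was 632 ± 4.72 CPM (SD) after ARMC5 knockdown and 619.5 ± 8.90 CPM (SD) in the control cells, a difference of 2.08% (95% confidence interval -1.61% to 5.91%, adjusted P = 0.588 by edgeR). The coding transcript VCP-201 held 77.8 to 80.1% of the reads of the gene and VCP-207, with the kept intron, 17.9 to 20.3%. VCP-207 took 18.2, 19.3 and 20.3% in the shARMC5 libraries and 19.7, 18.5 and 17.9% in the shNT libraries, and these ranges overlap. Thus close to 1 in 5 reads of VCP was assigned to a transcript without a coding sequence in both groups.

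UFD1 (ENSG00000070010), on chromosome 22 from 19449911 to 19479202 on the minus strand, encodes the partner of NPLOC4 in the heterodimer that binds ubiquitin chains. It was at 115.3, 115.6 and 115.8 CPM in the shARMC5 libraries and at 106.9, 106.7 and 113.8 CPM in the shNT libraries. The shARMC5 libraries were nearly equal, and shNT replicate 3 lay close to them and apart from the other shNT libraries. The difference was 5.90% (95% confidence interval 0.75% to 11.3%) or 0.08 on the log2 scale (SE 0.03, adjusted P = 0.201 by edgeR). UFD1-202, which lacks the stretch of exon 11, held 38.2 to 45.5% of the reads and UFD1-201 held 31.5 to 36.7%. UFD1-201 was at 36.7, 35.6 and 34.8% in the shARMC5 libraries and 34.9, 34.7 and 31.5% in the shNT libraries. The estimated reads on UFD1-201 differed by 0.17 on the log2 scale (SE 0.05, adjusted P = 0.653 by edgeR over transcripts, 0.0455 by DESeq2, a test that made mostly false calls over transcripts on simulated data).

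A transcript that the files list directly after those of UFD1, ENST00000445320 of 2651 bases, has no entry in the annotation and its gene is not given. It was estimated at 409, 450 and 288 reads in the shARMC5 libraries and at 0, 396 and 0 reads in the shNT libraries. When such transcripts were added to the gene listed before them, the log2 fold change of UFD1 was 0.17 (adjusted P = 0.0123 by edgeR), so the value of UFD1 depends on where these reads belong.

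NPLOC4 (ENSG00000182446), on chromosome 17 from 81556887 to 81648465 on the minus strand, was at 161.7, 159.0 and 157.7 CPM in the shARMC5 libraries and at 159.4, 156.2 and 151.0 CPM in the shNT libraries. The groups overlapped, although within the numbered pairs shARMC5 was higher by 2.3, 2.8 and 6.8 CPM, and the difference was 2.51% (95% confidence interval -1.94% to 7.16%, adjusted P = 0.588 by edgeR). A single coding transcript, NPLOC4-201, held 86.4 to 91.5% of its reads. TSPAN10, on the opposite strand within the same locus, had 13.2 to 37.9 reads per library, against 3978 to 6271 for NPLOC4.

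FAF2 (ENSG00000113194), on chromosome 5 from 176447628 to 176510074 on the plus strand, encodes a UBX domain protein of the endoplasmic reticulum and lipid droplets. It was at 129.4, 131.6 and 129.1 CPM in the shARMC5 libraries and at 120.5, 127.6 and 123.4 CPM in the shNT libraries. Every shARMC5 library was above every shNT library, by at least 1.5 CPM. The difference was 5.03% (95% confidence interval 0.23% to 10.1%, adjusted P = 0.253 by edgeR). Nearly all reads were on FAF2-201 (99.4 to 99.8%), so FAF2 had the simplest transcript pattern of the 10 genes and usage could not be tested.

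UBXN7 (ENSG00000163960), on chromosome 3 from 196347662 to 196432430 on the minus strand, encodes a cofactor that links VCP to cullin-RING ligases. It was at 57.0, 55.4 and 53.4 CPM in the shARMC5 libraries and at 58.7, 54.4 and 56.8 CPM in the shNT libraries. It had the fewest reads of the 10 genes and the widest interval, and its difference of -2.33% (95% confidence interval -8.43% to 4.18%, adjusted P = 0.751 by edgeR) lay within the spread between replicates. UBXN7-201 held 76.5 to 82.1% of the reads. UBXN7-205, without exon 2, held 15.5, 15.3 and 16.4% in the shARMC5 libraries and 13.8, 20.4 and 15.2% in the shNT libraries. The highest and the lowest share were both in shNT libraries.

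NSFL1C (ENSG00000088833), on chromosome 20 from 1442162 to 1473842 on the minus strand, encodes p47, the cofactor of VCP in membrane fusion at the Golgi. It was at 105.2, 107.4 and 101.2 CPM in the shARMC5 libraries and at 98.5, 99.3 and 94.9 CPM in the shNT libraries, and the groups did not overlap. The difference of 7.27% (95% confidence interval 1.88% to 12.9%) was the largest of the 10 genes, or 0.10 on the log2 scale (SE 0.04, adjusted P = 0.120 by edgeR). With a block for the replicate number, which raised the share of all genes called to 12.9%, 1 of the 10 genes was called, and this was NSFL1C (log2 fold change 0.10, adjusted P = 0.0419 by edgeR). Without shARMC5 replicate 3 its adjusted P value was 0.0919, and over the 6 fits that left out 1 library it ranged from 0.0919 to 0.351. Replicate 3 was the lowest library of each group, and the difference within each numbered pair was 6.7, 8.1 and 6.3 CPM.

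**Figure D2:**
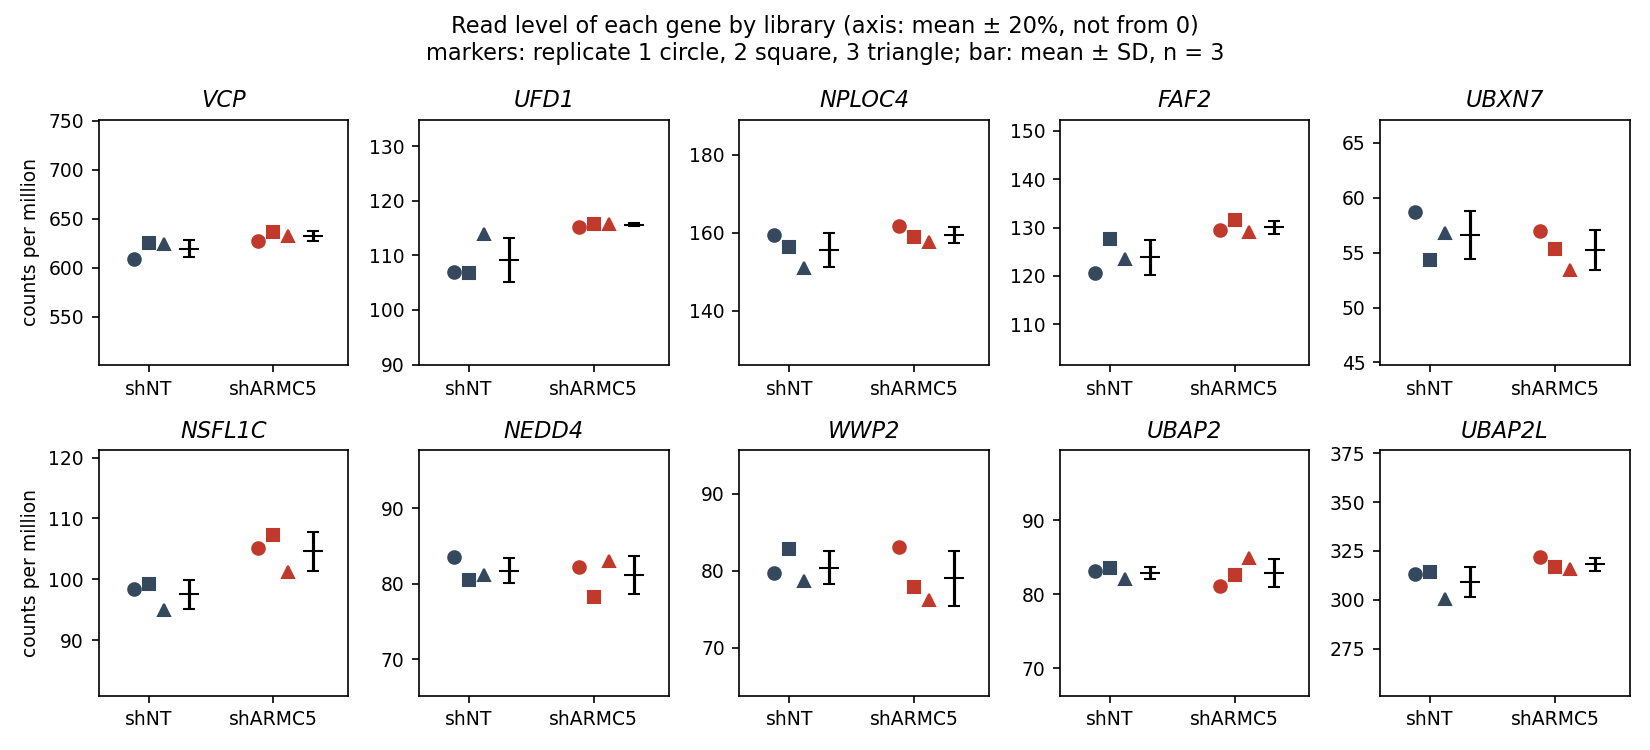
CPM of the 10 genes in each library, normalized with TMM factors, with dark points for shNT and red points for shARMC5, marker shape for the replicate number and bars for mean ± SD (n = 3). Each axis spans 20% on either side of the mean of the gene and does not start at 0. The points of VCP, UFD1, FAF2, NSFL1C and UBAP2L do not overlap between groups, and those of the other 5 genes do.

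The reads of NSFL1C were divided among 4 main transcripts. NSFL1C-206, which codes for the longer protein, held 36.9% on average, and NSFL1C-202, without exons 4 and 6, held 11.6%. NSFL1C-212 and NSFL1C-203, both annotated as targets of nonsense-mediated decay, held 34.1% and 13.6%. NSFL1C-202 took 17.9, 16.9 and 12.8% in the shARMC5 libraries and 11.9, 4.2 and 5.9% in the shNT libraries. The groups did not overlap, although shARMC5 replicate 3 and shNT replicate 1 were close to each other. NSFL1C-206 took 29.3, 29.3 and 39.0% in the shARMC5 libraries and 33.5, 45.9 and 44.4% in the shNT libraries, and there the groups overlapped. Between same-numbered libraries NSFL1C-206 was lower in shARMC5 cells by 4.2, 16.6 and 5.4 percentage points and NSFL1C-202 higher by 6.0, 12.8 and 6.9. NSFL1C-212 stayed between 32.1 and 36.0% in all 6 libraries. The estimated reads on NSFL1C-202 differed by 1.22 on the log2 scale (SE 0.42, adjusted P = 0.898 by edgeR over transcripts, 0.0963 by DESeq2).

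**Figure D3:**
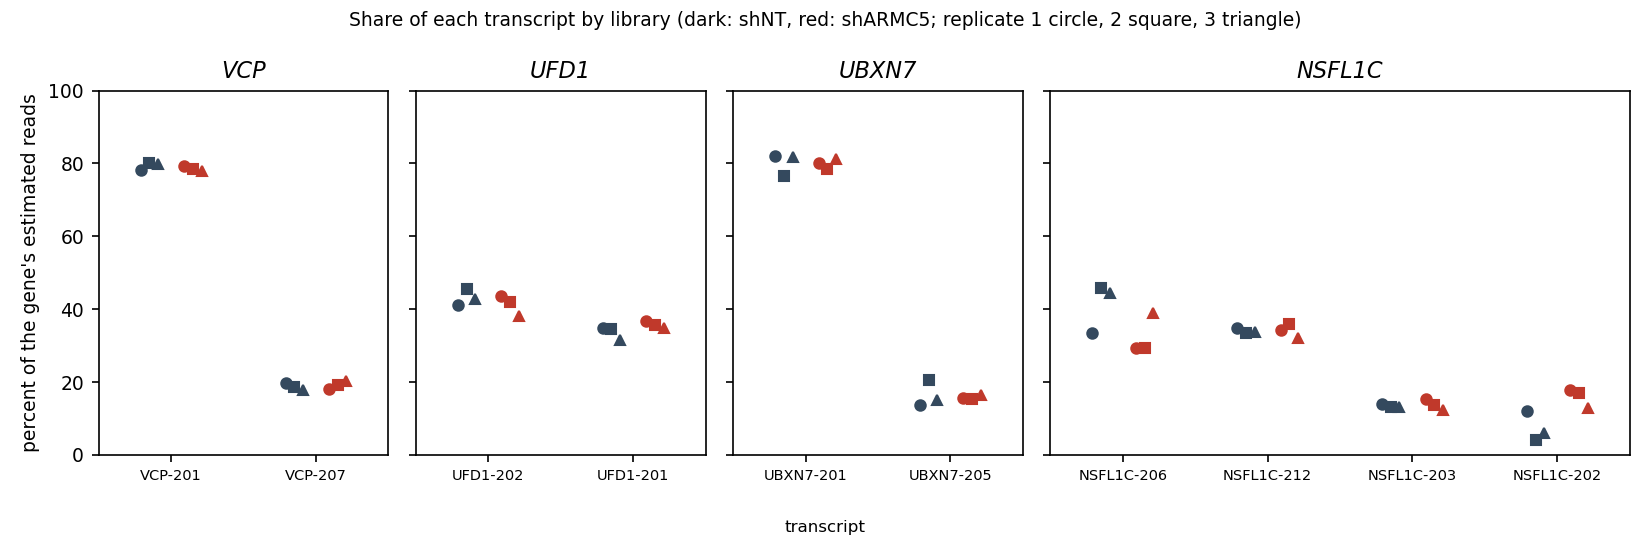
Share of the estimated reads of VCP, UFD1, UBXN7 and NSFL1C on each transcript with at least 10% of the reads of its gene, in percent, by library (dark, shNT, red, shARMC5, marker shape for replicate number). The shares of NSFL1C-202 are higher in the 3 shARMC5 libraries (12.8 to 17.9%) than in the 3 shNT libraries (4.2 to 11.9%), and those of the other transcripts shown overlap.

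Over the 61 transcripts of the 10 genes that passed the filter, 0 were called by edgeR, with 2 (UFD1-201 and NSFL1C-202) at an unadjusted P value under 0.05. Of all transcripts tested, 0.00803% were called. DESeq2 called 2 of the 61, the same pair, and 2.71% of all transcripts, but on simulated data most of its calls over transcripts were false. A test of transcript usage, which asks whether the transcripts of a gene change their proportions, called 0 of the 9 genes that could be tested (each adjusted P = 0.999999 by edgeR, 0 with an unadjusted P value under 0.05), beside 1.2% of all genes. On simulated data most calls of this test were false as well. NSFL1C was called by it without shNT replicate 1 (adjusted P = 0.00216 by edgeR) and without shARMC5 replicate 3 (adjusted P = 0.0838 by edgeR). A second test of usage, limma on the log odds of each transcript's share, called 0 of 23 transcripts of these genes. In it WWP2-202 (difference 0.56 in log2 odds, SE 0.17, adjusted P = 0.947) and NSFL1C-202 (difference 1.37, SE 0.44, adjusted P = 0.947) had unadjusted P values under 0.05. No transcript of any gene was called by it. Over all genes, 1049 of 23093 transcripts had an unadjusted P value under 0.05, no larger a share than arises without any change.

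NEDD4 (ENSG00000069869), on chromosome 15 from 55826922 to 55993660 on the minus strand, encodes a HECT ligase known to ubiquitinate Pol II after DNA damage. It was at 82.2, 78.3 and 83.0 CPM in the shARMC5 libraries and at 83.6, 80.4 and 81.2 CPM in the shNT libraries. The ranges of the groups overlapped, and the difference was -0.83% (95% confidence interval -6.06% to 4.70%, adjusted P = 0.912 by edgeR), with a sign that changed without shARMC5 replicate 2 (0.014 on the log2 scale) and without shNT replicate 1 (0.0056). Only 51.5 to 55.7% of its reads in the shARMC5 libraries and 48.3 to 51.7% in the shNT libraries were on the coding transcript NEDD4-202. The rest was nearly all on NEDD4-207, a transcript of 965 bases and 3 exons with no defined coding sequence, which held 41.7, 43.7 and 47.6% in the shARMC5 libraries and 50.4, 46.7 and 47.0% in the shNT libraries. Its share was lower in shARMC5 replicates 1 and 2 than in every shNT library, but shARMC5 replicate 3 lay above shNT replicates 2 and 3 (log2 fold change of its reads -0.12, SE 0.08, not called by edgeR over transcripts, and from -0.19 without shARMC5 replicate 3 to -0.07 without shNT replicate 1). Listed directly after the transcripts of NEDD4 are ENST00000435971, of 6861 bases, and ENST00000428775, of 6893 bases, which have no entry in the annotation. They held 2785 to 5742 and 2678 to 4697 reads per library, more than the 2093 to 3088 reads of NEDD4, and their gene is not given, so the level of NEDD4 here is that of its matched transcripts. With these reads added to NEDD4 its log2 fold change was -0.08 (adjusted P = 0.800 by edgeR), and with an offset for transcript length it was also -0.08 (adjusted P = 0.680 by edgeR), in place of -0.01.

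WWP2 (ENSG00000198373), on chromosome 16 from 69762328 to 69941741 on the plus strand, encodes another HECT ligase of the NEDD4 family known to ubiquitinate Pol II. It was at 83.1, 77.9 and 76.2 CPM in the shARMC5 libraries and at 79.8, 82.8 and 78.7 CPM in the shNT libraries. The highest and the lowest values were both in shARMC5 libraries, and the difference was -1.70% (95% confidence interval -7.30% to 4.24%, adjusted P = 0.809 by edgeR). The coding transcript WWP2-202 held 87.4, 84.4 and 83.1% of the reads in the shARMC5 libraries and 77.3, 80.1 and 80.7% in the shNT libraries. These shares did not overlap between groups, but neither test of usage called them.

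UBAP2 (ENSG00000137073), on chromosome 9 from 33921693 to 34049388 on the minus strand, and UBAP2L (ENSG00000143569), on chromosome 1 from 154220179 to 154271510 on the plus strand, encode paralogous UBA domain proteins that are known to promote ubiquitination of Pol II after UV damage. UBAP2 was at 81.2, 82.6 and 84.8 CPM in the shARMC5 libraries and at 83.2, 83.5 and 82.0 CPM in the shNT libraries. Its difference of -0.08% (95% confidence interval -5.06% to 5.16%, adjusted P = 0.992 by edgeR) was the smallest of the 10 genes, and its sign changed in 4 of the 6 fits that left out 1 library. UBAP2L was at 322.2, 316.6 and 316.0 CPM in the shARMC5 libraries and at 313.5, 314.1 and 300.5 CPM in the shNT libraries. All shARMC5 libraries were above all shNT libraries, yet the difference was 2.86% (95% confidence interval -1.07% to 6.95%, adjusted P = 0.455 by edgeR). UBAP2-204 held 88.0 to 94.0% of the reads of UBAP2. UBAP2L was spread over more coding transcripts, with 37.8 to 42.9% of its reads on UBAP2L-202 and 25.6 to 31.8% on UBAP2L-207. C1orf43, which overlaps UBAP2L on the opposite strand, had 5021 to 8056 reads per library. The sources used here do not say that reads were assigned by strand, so reads from the shared stretch cannot be told apart.

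On the TPM scale, which divides reads by transcript length and so allows levels of different genes to be compared, VCP was highest at 281 ± 8.56 TPM (SD, n = 6) and UBXN7 lowest at 19.9 ± 2.11 TPM (SD, n = 6), a range of 14.1-fold. The means of the other genes over the 6 libraries were 190 TPM for UBAP2L, 174 for UFD1, 119 for NSFL1C, 79.6 for NEDD4, 73.3 for NPLOC4, 41.9 for FAF2, 33.3 for WWP2 and 29.96 for UBAP2. The ranges of NEDD4 and NPLOC4 overlapped, as did those of WWP2 and UBAP2, and the other neighbours in this order were separate in all 6 libraries. The order changed when only protein-coding transcripts were summed. NEDD4 then fell to 11.98 TPM, or 15.05% of its level over all transcripts, the lowest mean of the 10 genes, in a range that overlapped that of UBXN7. This place, and the ratio of WWP2 to NEDD4 below, leave out the long transcripts listed after NEDD4 whose gene is not given. Each of these held more reads than NEDD4-202. NSFL1C fell to 25.7 TPM, or 21.7%, and VCP to 197 TPM, or 70.0%. UFD1 kept 97.3% and FAF2 96.1%. On coding transcripts VCP was 16.4-fold above NEDD4, and UBAP2L and UFD1 overlapped at 175 and 170 TPM. So the high TPM of NEDD4 and NSFL1C rested on short transcripts without a defined coding sequence or annotated for nonsense-mediated decay.

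**Figure D4:**
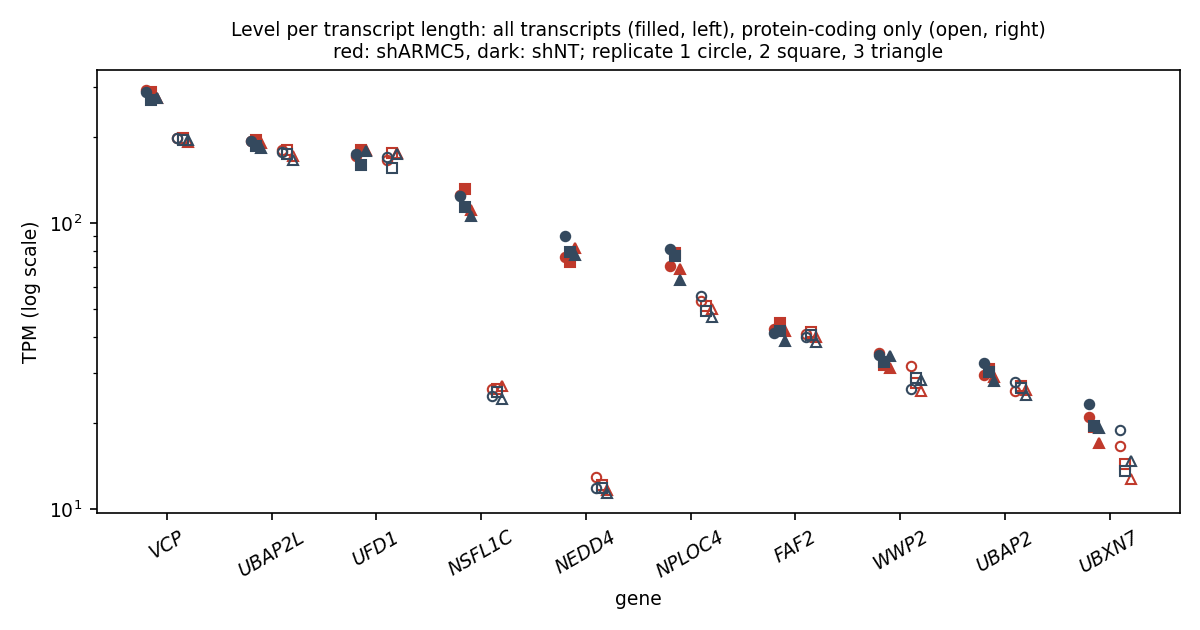
TPM of each gene in each of the 6 libraries on a log scale, summed over all transcripts (filled points, left) and over protein-coding transcripts only (open points, right), in red for shARMC5 and dark for shNT. NEDD4 and NSFL1C drop furthest between the 2 sums, to 11.98 and 25.7 TPM on average.

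Partners were then compared as TPM ratios within a library, with a two-sided exact permutation test on log2 ratios whose smallest possible P value for 3 against 3 libraries is 0.1. UFD1 was at 2.42, 2.29 and 2.62 times NPLOC4 in the shARMC5 libraries and at 2.15, 2.09 and 2.85 times in the shNT libraries. The highest and lowest ratios were both in shNT libraries (exact P = 0.7). UBAP2L was at 6.61, 6.31 and 6.59 times UBAP2 in the shARMC5 libraries and at 5.97, 6.21 and 6.53 times in the shNT libraries, and the groups overlapped (exact P = 0.2). In each of the 3 numbered pairs the ratio was higher in shARMC5 cells (exact sign-flip permutation P = 0.25, the smallest that 3 pairs can give). WWP2 was at 0.427 ± 0.0416 (SD, n = 3) times NEDD4 in shARMC5 cells and 0.413 ± 0.0301 (SD, n = 3) times in shNT cells (exact permutation P = 0.8). On coding transcripts this order turned, and WWP2 was at 2.21 to 2.48 times NEDD4. VCP was at 0.654 ± 0.0227 (SD, n = 3) times the sum of its 5 cofactors in shARMC5 cells and 0.659 ± 0.0166 (SD, n = 3) times in shNT cells (exact permutation P = 0.7). After adjustment over the 4 ratios each exact P value was 0.8.

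The other genes of these pathways were taken as 4 lists of 60 genes in all, of which 58 were tested and 4 called, 3 higher and 1 lower in shARMC5 cells. This is 6.9% of those tested, beside 7.75% of all genes, so the share called was close to the background. Of 9 other UBX domain proteins tested, 0 were called by edgeR or DESeq2 and 1 had an unadjusted P value under 0.05. Their median log2 fold change was 0.0043. The smallest P values were those of UBXN8, at 30.3, 30.7 and 32.2 CPM in the shARMC5 and 28.4, 29.3 and 27.1 CPM in the shNT libraries (log2 fold change 0.13, SE 0.06, adjusted P = 0.226 by edgeR), and of UBXN11 (log2 fold change 0.17, SE 0.08, adjusted P = 0.292 by edgeR). That of UBXN11 was 0.11 without shARMC5 replicate 3 and 0.34 with the length offset.

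Of 22 other partners of VCP tested, among them deubiquitinases and factors of degradation from the endoplasmic reticulum, 1 was called higher and 0 lower. Their median log2 fold change was 0.0058. The 1 called is 4.55% of those tested, beside 7.75% of all genes. The called gene, YOD1, encodes a deubiquitinase that works with VCP. It was at 39.2, 36.9 and 37.2 CPM in the shARMC5 libraries and at 34.6, 33.3 and 33.0 CPM in the shNT libraries. It rose by 0.17 on the log2 scale (SE 0.05, adjusted P = 0.0875 by edgeR, 0.179 by DESeq2), and it was not called when any 1 of the 6 libraries was left out, at adjusted P values from 0.124 to 0.226. Nor was it called with library size only (adjusted P = 0.141 by edgeR) or with an offset for transcript length (adjusted P = 0.301 by edgeR, 0.289 by DESeq2). The call of YOD1 held in 5 of 16 alternatives. Among them was the replicate block, under which 12.9% of all genes were called (adjusted P = 0.0471 by edgeR for YOD1).

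Of 9 other ligases of the NEDD4 family and their adaptors, 2 were called higher and 0 lower, while the median was -0.04. The 2 called are 22.2% of this short list, beside 7.75% of all genes tested. Both called genes, NDFIP1 and NDFIP2, encode membrane adaptors that bind and activate NEDD4 family ligases, and none of the 7 ligases was called. Among these ligases, HECW1 had only 12 to 28 reads per library (95% confidence interval -54.3% to 37.9%). HECW2 had 26 to 48 reads (-52.2% to 13.3%), so the data say little about either. NDFIP1 was at 126.4, 133.9 and 135.3 CPM in the shARMC5 libraries and at 114.5, 121.8 and 114.2 CPM in the shNT libraries. Every shARMC5 library was higher, by 0.17 on the log2 scale (SE 0.04, adjusted P = 0.00961 by edgeR, 0.00336 by DESeq2). NDFIP2 was at 101.2, 105.6 and 109.6 CPM in the shARMC5 libraries and at 98.6, 94.6 and 92.6 CPM in the shNT libraries. It rose by 0.15 on the log2 scale (SE 0.04, adjusted P = 0.0353 by edgeR, 0.0440 by DESeq2), and its adjusted P value was 0.115 without shARMC5 replicate 2, 0.137 without shARMC5 replicate 3 and 0.140 without shNT replicate 3. With an offset for transcript length the log2 fold change of NDFIP1 was 0.18 (adjusted P = 0.122 by edgeR, 0.0178 by DESeq2) and that of NDFIP2 was 0.09 (adjusted P = 0.390 by edgeR, 0.416 by DESeq2).

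Of 18 other ubiquitin factors of Pol II, which include the cullin, elongin and Cockayne syndrome proteins, 0 were called higher and 1 lower. Their median log2 fold change was -0.0034. The 1 called is 5.56% of those tested, beside 7.75% of all genes. The called gene was BRCA1, which encodes a RING ligase that acts with BARD1. It was at 89.7, 95.1 and 87.1 CPM in the shARMC5 libraries and at 105.7, 101.1 and 97.5 CPM in the shNT libraries, and the groups did not overlap. It fell by 0.16 on the log2 scale (SE 0.04, adjusted P = 0.0306 by edgeR, 0.0276 by DESeq2), with adjusted P = 0.104 without shARMC5 replicate 3 and 0.165 without shNT replicate 1. With the length offset the log2 fold change was -0.28 (adjusted P = 0.221 by edgeR, 0.0411 by DESeq2). With the replicate block, under which 12.9% of all genes were called, 2 more of the 18 were called, both named here after their values were seen: ELOA, the elongin that recruits a CUL5 ligase to Pol II (0.10 on the log2 scale, adjusted P = 0.0439 by edgeR), and CUL5, the cullin of that ligase (-0.09, adjusted P = 0.0927 by edgeR).

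**Figure D5:**
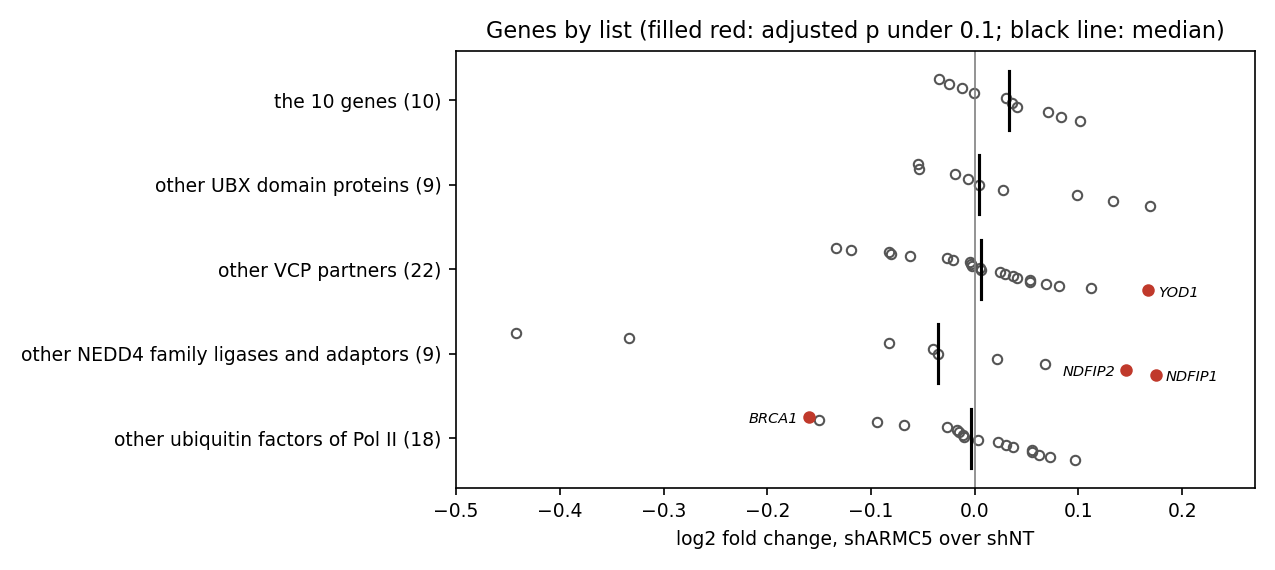
Log2 fold change of each tested gene, shARMC5 over shNT, for the 10 genes and the 4 other lists, with the number tested in brackets, filled red points for called genes and a black line at the median of each list. The 10 genes lie between -0.03 and 0.10, and the called genes are YOD1, NDFIP1 and NDFIP2 on the higher and BRCA1 on the lower side.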

How the data were processed

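RNA-seq of shARMC5 and shNT SPT5-AID cells, 3 libraries each, was analysed. The members and gene lists were chosen with earlier results of these data known. Before deposit, the authors used cutadapt 4.2 for trimming and salmon 1.9.0 for quantification on hg38, corrected for GC content. The transcript set is not given in the sources used here. Each deposited file lists TPM, an estimated count, the length and the effective length of every transcript.

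Transcripts were matched by identifier to GENCODE 44 (165533 of 177456), and the 2.96 to 3.04% of reads on the others were left out. Estimates were added up by gene and rounded, and those reaching 10 counts in 3 or more libraries entered the fit by edgeR 4.0.16 under R 4.3.3 (quasi-likelihood F test) with TMM factors and a term for condition alone, Benjamini-Hochberg adjustment and a threshold of 0.1. CPM is TMM-normalized. DESeq2 1.42.0 and limma 3.58.1 were alternatives. The 95% intervals use the degrees of freedom of edgeR's fit, and the common biological coefficient of variation was 0.0643. Tests were tried on simulated data. There edgeR's usage test and DESeq2 on transcripts made more false than true calls, so their calls are printed with that limit. Same-numbered libraries deviated together from their group means (correlations 0.231, 0.229 and 0.289 over 6312 genes), so the fit with a replicate block is printed beside a result whose call it changes. The intervals and P values otherwise come from the unpaired fit. Ratios were tested by exact permutation (Python 3.11.15).

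Named in the text are the 10 genes, ARMC5, at most 5 called genes each way per list or else the 2 of smallest P value, called transcripts, transcripts with at least 10% of the reads of their gene, and overlapping genes where a result turns on them. The transcripts without an entry in the annotation and the genes called only with the replicate block were named after their values were seen.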

Additional observations from a re-analysis of the deposited data

How the results depend on the processing

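The 10 genes had a count of 0 called in 12 of 16 alternatives, and 1 was called in each of the other 4, all by edgeR. NSFL1C was called without shARMC5 replicate 3, with a replicate block and with the low count filter relaxed to at least 1 count (adjusted P = 0.0853 by edgeR). UFD1 was called when transcripts without an entry in the annotation were added to the gene listed before. The replicate block moved the genes called in all from 1064 to 1766, the transcripts called from 4 to 0 and the genes with changed transcript usage from 118 to 74. It added ELOA and CUL5 to the called genes of the other lists. With an offset for transcript length 235 genes in all and 0 of the other lists were called, with DESeq2 and that offset 568 and 3, and at an adjusted P value under 0.05, 676. Over transcripts DESeq2 called 2 of the 10 genes and 1349 in all, a filter of at least 1 count 11 in all, and a threshold of 0.05 left 1. Usage was called for 56 genes when transcripts needed 5% of the reads of their gene and for 0 with limma on shares, an alternative chosen after seeing the data, as were the TPM levels over coding transcripts, whereas the ratios over coding transcripts were planned. The log2 ratio of WWP2 to NEDD4 between groups turned from 0.043 to -0.015 with estimated counts and to -0.032 with coding transcripts only. Leaving out 1 library at a time gave 0 to 1 of the 10 genes called, 536 (without shNT replicate 1) to 1085 (without shNT replicate 2) genes in all, 1 to 4 of the other lists, 0 to 2 transcripts, and 0 to 1 of the 10 genes with changed usage (NSFL1C, without shNT replicate 1 and without shARMC5 replicate 3). The log2 fold change then ranged from -0.030 to 0.014 for NEDD4 and from -0.019 to 0.014 for UBAP2. The log2 ratios between groups ranged from -0.020 to 0.204 for UFD1 over NPLOC4, from -0.017 to 0.122 for WWP2 over NEDD4, from 0.030 (without shNT replicate 1) to 0.094 (without shNT replicate 3) for UBAP2L over UBAP2 and from -0.036 to 0.014 for VCP over its cofactors. The cause of these shifts was not tested. The other 8 genes kept their direction in every alternative, but small differences moved by over 1.5 times. The log2 fold change ranged from 0.019 (without shNT replicate 1) to 0.036 for VCP, from 0.015 (without shNT replicate 3) to 0.055 (without shNT replicate 1) for NPLOC4, from 0.020 (without shNT replicate 3) to 0.052 for UBAP2L, from -0.063 (without shNT replicate 2) to -0.0061 (without shNT replicate 1) for UBXN7 and from -0.060 (without shARMC5 replicate 1) to -0.0022 (without shARMC5 replicate 3) for WWP2. With the length offset in edgeR it was 0.054 for VCP, 0.0040 for NPLOC4 and -0.092 for UBXN7, and with library size only 0.016 for VCP, 0.021 for NPLOC4, 0.027 for UBAP2L and -0.039 for WWP2. Depth limits UBXN7 most, at 1347 reads in its lowest library, and the division of reads among transcripts of 1 gene is an estimate.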
